A study of Mus musculus with 6 samples.

Results

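The Toll-like receptor (TLR) and NF-kB response genes were followed in long-term hematopoietic stem cells (LT-HSCs). The list held 48 gene symbols, and its members were the 44 with a row in the deposited normalized table of 12179 genes. Tlr1, Tlr6, Cd14 and Il6 had no row there and were read from the deposited count table of 27179 genes. The list covered 8 receptors and co-receptors, 10 adaptors, IRAK and TRAF proteins, 7 TAK1 and IKK kinases, 5 NF-kB subunits, 7 inhibitors and IkB family proteins, and 11 cytokines, chemokines and other genes that the pathway can induce.

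RNA-Seq was performed on LT-HSCs sorted as CD150+CD48-LSK cells from the bone marrow of C57BL/6 mice at 8 weeks of age, with 3 WT libraries and 3 libraries heterozygous for Foxm1 (Foxm1 HET), a forkhead transcription factor of the cell cycle. The labels name no treatment of either group. Titles of the Foxm1 HET libraries name a floxed allele without a Cre driver, the genotype labels call the mice heterozygous, and the study describes both Tie2-Cre and Mx1-Cre deletion without saying which was used here. Reads counted on genes ranged from 14573002 to 25798509 per library, and bone marrow came from 3 pairs of mice by the methods, which do not tie pairs to replicate numbers or say whether mice were pooled, so p-values measure the spread between libraries.

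TLRs sense microbial molecules at the cell surface or in endosomes and signal through MyD88 or TRIF (encoded by Ticam1) to IRAK and TRAF proteins. These activate the TAK1 complex and the IKK complex, IKK marks the IkB inhibitors for destruction, and NF-kB dimers then enter the nucleus and switch on cytokine genes together with genes of their own inhibitors. HSCs carry several TLRs, and inflammatory signals are known to draw them out of quiescence.

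The DNA site of NF-kB, the kappaB site, was searched in promoter windows from 250 bases before to 50 bases after each transcription start (RefSeq, GRCm38.p6). The motif was written as GGG, any 2 bases, TT, then C or T, then CC, and both strands were read. Of the 48 genes, 36 had an entry, and 12 of these held a match. Over all 27025 genes with an entry, 3.73% held one. The genes with a match were Tlr2, Traf3, Map3k7, Rel, Nfkb2, Nfkbia, Bcl3, Tnfaip3, Tnip1, Il6, Cxcl2 and Cxcl10, so that 2 of 3 subunit genes and 4 of 6 inhibitor genes with an entry carried the letters. Windows of 30 bases are shown for 7 of these genes. The 7 share the motif, and their transcripts were not all most abundant in the same library. The windows are written in the direction of the gene, with the matching bases in capitals.
Nfkbia: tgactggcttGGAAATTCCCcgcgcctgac
Tnfaip3: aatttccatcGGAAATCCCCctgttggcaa
Tlr2: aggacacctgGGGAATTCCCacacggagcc
Rel: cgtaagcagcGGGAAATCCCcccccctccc
Bcl3: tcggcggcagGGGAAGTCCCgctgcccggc
Cxcl2: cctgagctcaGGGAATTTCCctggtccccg
Cxcl10: cggtttacagGGGACTTCCCtcgggttgcg
The windows lie at chr12:55492657-55492686 (minus strand) for Nfkbia, chr10:19015403-19015432 (minus) for Tnfaip3, chr3:83841761-83841790 (minus) for Tlr2, chr11:23771042-23771071 (minus) for Rel, chr7:19822734-19822763 (minus) for Bcl3, chr5:90903792-90903821 (plus) for Cxcl2 and chr5:92348973-92349002 (minus) for Cxcl10. Cxcl2 held a second match 19 bases downstream, and the Rel match overlaps another that starts 1 base later. The site of Bcl3 starts 2 bases after the transcription start, and the other 6 start before it. A match is a run of letters and does not show that NF-kB was bound there in these cells.

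Expression of Foxm1 was lower in each Foxm1 HET library than in each WT library. Reads of Foxm1 numbered 1182, 2615 and 2942 in WT replicates 1, 2 and 3, against 659, 5 and 742 in the same order of Foxm1 HET replicates, with a log2 fold change of -3.30 (standard error [SE] 2.33, adjusted p = 0.961, edgeR quasi-likelihood test with Benjamini-Hochberg adjustment, used throughout). The cell type label was checked with 13 LT-HSC markers. Kit had 10720 or more and Hlf 11752 or more reads in every library, whereas Slamf1, which encodes the sorted surface protein CD150, had 2, 1572 and 0 reads in WT against 8, 0 and 543 in Foxm1 HET, so this marker was absent or nearly so in 4 libraries. Ly6a, which encodes Sca-1 of the LSK gate, ranged from 2 to 2261 reads. Neutrophil genes were abundant in the same libraries. The 12 neutrophil markers summed to 15136 to 30916 TPM (counts divided by gene length and scaled to the same total in each library) in WT and 3069 to 16854 in Foxm1 HET. The lower sums were not shared by the whole marker list. Of 11 neutrophil markers tested, 5 had a higher and 6 a lower fitted level in Foxm1 HET, and 0 had an unadjusted p under 0.05 by edgeR. Summed markers were between 0 and 165 TPM for B cells, 22.0 and 149 TPM for T and NK cells, and 106 and 655 TPM for erythroid cells. The part of any such cells in the results was not tested, and in bulk samples fewer cells of a type and less RNA per cell cannot be told apart.

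No gene of the list differed between the genotypes beyond the spread between libraries by the test used. Of the 44 members, 33 passed edgeR's default filter on low counts, 15 with a higher and 18 with a lower fitted level in Foxm1 HET. None had an adjusted p under 0.05 (0.329% of the 8195 genes tested did), and the smallest member value was 0.945. None had an unadjusted p under 0.05 either, against 6.03% of all genes tested. DESeq2, which gave no adjusted p for 5 of the 33, also had 0 members with an adjusted p under 0.05 and 2 with an unadjusted one, against 2.37% and 10.1% of all genes. With limma, run on the normalized values, 0 of 44 members passed either limit, against 0.00821% and 2.04% of all genes. The median log2 fold change was -0.15 over the 33 genes and -0.26 over all genes tested. The SE was larger than the log2 fold change itself for 24 of the 33 genes, with a median SE of 2.73 log2 units against 2.59 over all genes. Even Tlr7, with a log2 fold change of 5.04, had an unadjusted p of 0.151 by edgeR. Large differences could therefore be missed in data with this spread.

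Among these genes, 2 did not overlap between the genotypes on log2 CPM. This measure gives counts per unit of library size on a log2 scale, with a prior count of 2. The library sizes in it were scaled by TMM factors, which adjust for differences in composition between libraries. Tlr7 was higher in each Foxm1 HET library than in each WT library, as were 4.12% of all genes tested, and Nfkbia was lower in each, as were 4.55%. The smallest p of the exact permutation test with 3 libraries against 3 is 0.1, and both genes were at that value (two-sided).

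**Figure D1:**
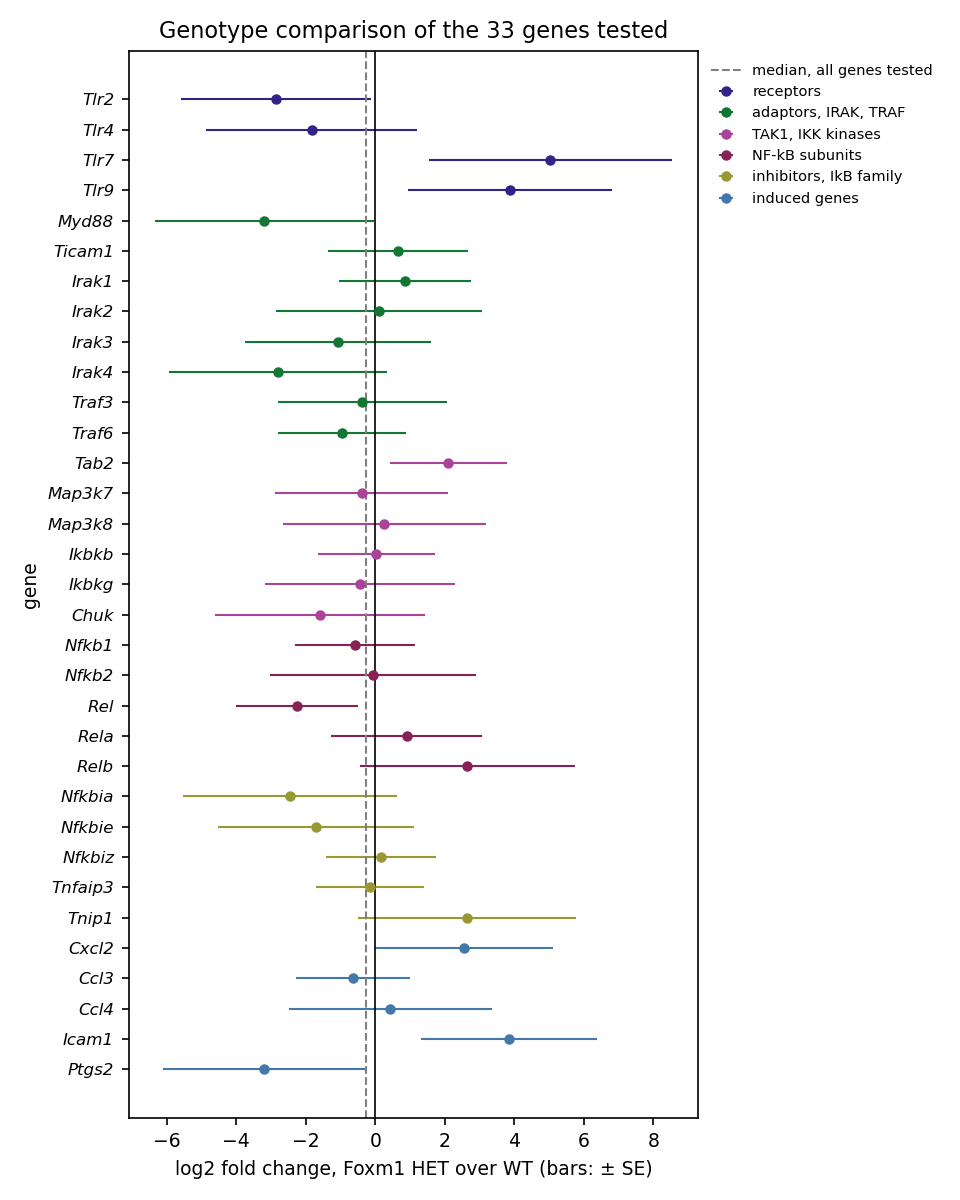
Log2 fold change of Foxm1 HET over WT LT-HSCs (x axis) for the 33 genes tested, ordered and coloured by role, with bars of ± SE. The dashed line is the median of all genes tested (-0.26), and the bars of 24 of the 33 genes cross 0.

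The genes were detected unevenly from library to library. Of the 44 members, 34, 22 and 22 had at least 10 reads in WT replicates 1, 2 and 3, against 37, 16 and 33 in the same order of Foxm1 HET replicates. The corresponding shares were 77.3%, 50% and 50% in WT against 84.1%, 36.4% and 75% in Foxm1 HET. For all genes of the normalized table, the shares were 63.8%, 55.6% and 48.6% in WT against 79.2%, 36.4% and 75.8% in Foxm1 HET, so both shares were highest in Foxm1 HET replicate 1 and lowest in Foxm1 HET replicate 2. Foxm1 HET replicate 2 was also the library with the fewest counted reads.

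Only 8 of the 44 members (18.2%) reached 10 reads in all 6 libraries, namely Irak1, Tab2, Map3k7, Ikbkb, Rel, Nfkbiz, Tnfaip3 and Ccl3, against 20.6% of all genes of the table. A further 7 members (15.9%) reached 10 reads in 1 library only, against 17.5% of all genes of the table. At least 1 library had 0 reads for 21 of the 44. Across all 6 libraries, the highest TPM was at least 100 times the lowest, or the lowest was 0, for 37 of the 44. This count does not separate the genotypes, and it includes genes that were low throughout, such as Tab1 at no more than 1.39 TPM. For these last 2 counts the share over all genes was not computed.

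**Figure D2:**
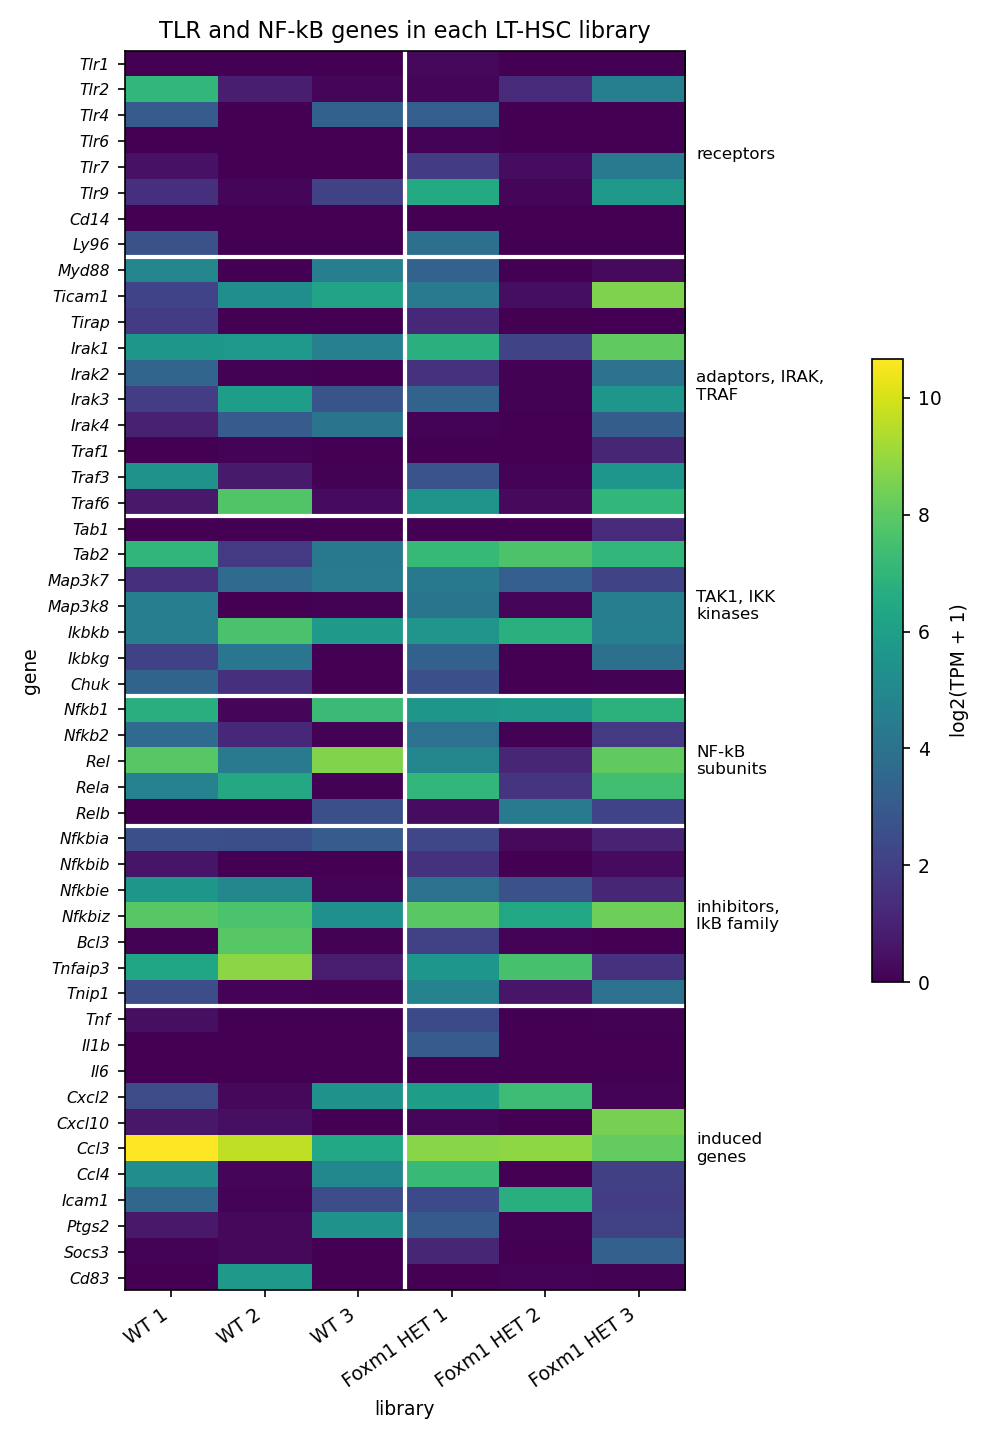
Heat map of log2(TPM + 1) for the 48 genes (rows, grouped by role) in the 6 LT-HSC libraries (columns, WT left and Foxm1 HET right). Ccl3, Nfkbiz and Ikbkb are lit in every library, while Cd83, Bcl3, Cxcl10 and Il1b are lit mainly in 1.

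**Figure D3:**
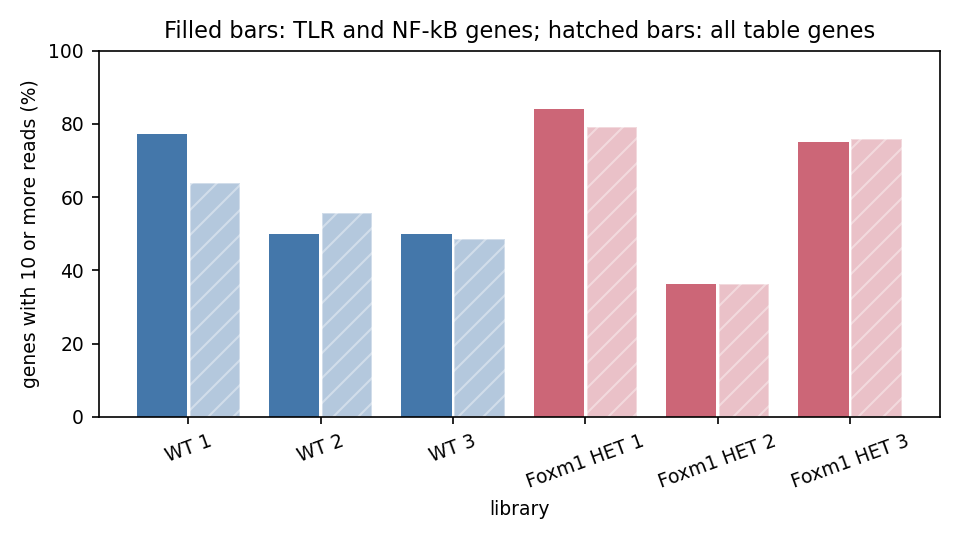
Share of genes with 10 or more reads (y axis, %) in each library, for the 44 members (filled bars) and all 12179 genes of the normalized table (hatched bars), WT in blue and Foxm1 HET in red. Both shares were lowest in Foxm1 HET replicate 2, at 36.4%.

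Among the receptors, Tlr2 and Tlr9 had the highest mean levels, and each owed its level to particular libraries. Tlr2, the surface receptor for bacterial lipopeptides (chromosome 3, 83836272 to 83841608 on GRCm38, the build of all coordinates here), had 3451, 25 and 3 reads in WT against 4, 28 and 722 in Foxm1 HET. WT replicate 1 held most of its reads, and the genotypes overlapped. Its log2 CPM was 1.88 ± 4.80 (SD, n = 3) in WT against 1.28 ± 3.35 (SD, n = 3) in Foxm1 HET, with a log2 fold change of -2.86 (SE 2.73, adjusted p = 0.998 by edgeR), and without WT replicate 1 the sign turned, to 3.56.

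Tlr9, the endosomal receptor for unmethylated CpG DNA (chromosome 9, 106222598 to 106226876), had 57, 4 and 116 reads in WT against 3785, 3 and 1983 in Foxm1 HET. Both high libraries were Foxm1 HET, and the remaining Foxm1 HET library, with 3 reads, overlapped with WT. On log2 CPM the level was 0.78 ± 2.47 (SD, n = 3) in WT against 3.78 ± 4.06 (SD, n = 3) in Foxm1 HET, and the log2 fold change was 3.88 (SE 2.93, adjusted p = 0.971 by edgeR).

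Tlr7, the endosomal receptor for single-stranded RNA (chromosome X, 167304931 to 167330528), had 15, 1 and 0 reads in WT against 118, 7 and 844 in Foxm1 HET. The 3 Foxm1 HET libraries were higher on log2 CPM, although the lowest of them held fewer reads than the highest WT library. This parting rested on the TMM factors, 0.453 for Foxm1 HET replicate 2 and 1.13 for WT replicate 1. By TPM the genotypes overlapped, with 0.282 in Foxm1 HET replicate 2 and 0.434 in WT replicate 1. The mean log2 CPM came to -2.33 ± 1.71 (SD, n = 3) in WT against 2.08 ± 2.09 (SD, n = 3) in Foxm1 HET, and the log2 fold change was 5.04 (SE 3.51, adjusted p = 0.959 by edgeR). On the deposited normalized table, which gives log2 values, the genotypes overlapped, with 0.89, 0.52 and 0.16 in WT against 0.76, 2.85 and 2.97 in Foxm1 HET.

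Not every part of the lipopolysaccharide receptor was detected. Tlr4 itself had 266, 0 and 372 reads in WT against 378, 0 and 0 in Foxm1 HET. Ly96 encodes MD-2, the protein that binds lipopolysaccharide on TLR4, and had 29, 0 and 0 reads in WT against 103, 0 and 0 in Foxm1 HET. The co-receptor gene Cd14 had 0 reads in all 6 libraries, which allows up to 3 reads per library (0.116 to 0.206 CPM, counting error only). Tlr1 and Tlr6, the partners of Tlr2, had 5 and 2 reads in Foxm1 HET replicate 1 and 0 elsewhere, and 15.4% and 12.3% of their 50-base stretches also occur in transcripts of other genes, so their counts are uncertain.

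Of the adaptors, Ticam1 had a higher mean level than Myd88 (88.0 against 10.2 TPM), though not in WT replicate 1. Ticam1, the adaptor of TLR3 and of the endosomal arm of TLR4 (chromosome 17, 56269462 to 56276767), had 88, 1079 and 2260 reads in WT against 703, 6 and 11962 in Foxm1 HET. Both the highest and the lowest library were Foxm1 HET. In log2 CPM it stood at 4.92 ± 2.62 (SD, n = 3) in WT against 4.13 ± 4.07 (SD, n = 3) in Foxm1 HET, while the fitted log2 fold change had the opposite sign, at 0.66 (SE 2.02, adjusted p = 0.998 by edgeR). Without Foxm1 HET replicate 3 it was -2.60.

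Myd88, the adaptor of most TLRs, had 511, 0 and 464 reads in WT against 212, 0 and 4 in Foxm1 HET. Tirap, which bridges MyD88 to TLR2 and TLR4, had 124, 0 and 1 reads in WT against 76, 0 and 0 in Foxm1 HET. Both adaptors were thus near 0 in WT replicate 2 and in Foxm1 HET replicates 2 and 3.

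The libraries with Tlr4 reads were those with substantial Myd88 reads. WT replicates 1 and 3 and Foxm1 HET replicate 1 held 212 or more Myd88 reads and 266 or more Tlr4 reads, and the other 3 held at most 4 and 0. Ccl4, a chemokine of myeloid and lymphoid cells, had 228, 1 and 216 reads in WT against 1208, 0 and 22 in Foxm1 HET, and its 3 highest libraries were the same. This grouping was chosen after the values were seen, and it runs across the genotypes. Monocyte and macrophage markers moved with it in part. The 11 markers with a row in the count table summed to 8624, 3978 and 7501 TPM in WT against 8745, 2053 and 1827 in Foxm1 HET, most of it Lyz2. Cd68, a lysosomal protein of macrophages, had 894, 1 and 1296 reads in WT against 1048, 324 and 2 in Foxm1 HET. Other markers did not follow the grouping. Ccr2 had 696, 1785 and 5759 reads in WT against 4617, 13853 and 382 in Foxm1 HET. Ly6c2 had 1270 reads in Foxm1 HET replicate 2, above the 883 of WT replicate 1. The macrophage gene Ms4a7 was at 0 in all 6 libraries, and Fcgr1, with 1115, 0 and 2 in WT against 122, 0 and 2 in Foxm1 HET, was near 0 in WT replicate 3, where Tlr4 had 372. The part of such cells in the levels of Tlr4, Myd88 and Ccl4 was not tested.

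**Figure D4:**
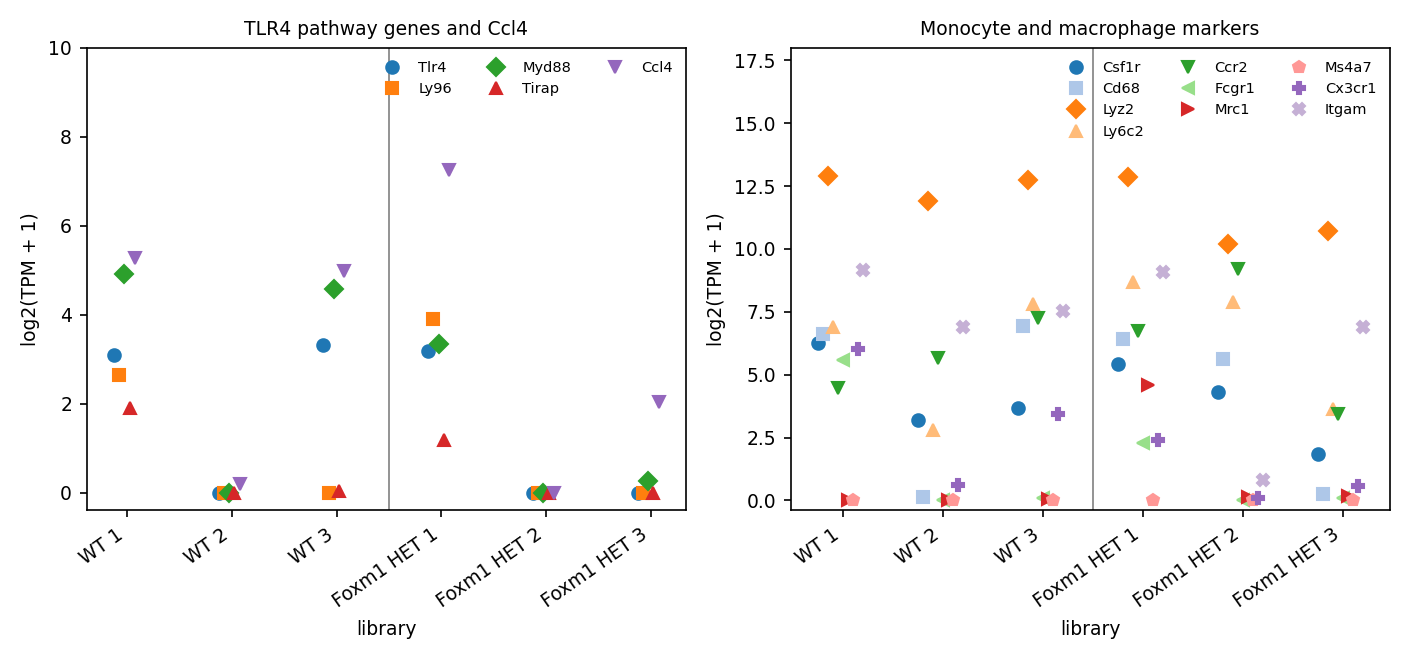
log2(TPM + 1) (y axes, different scales) in each library of Tlr4, Ly96, Myd88, Tirap and Ccl4 (left) and of 10 monocyte and macrophage markers with a row in the count table (right), the line parting WT from Foxm1 HET. Tlr4 and most of the Myd88 and Ccl4 signal sit in WT 1, WT 3 and Foxm1 HET 1, where Cd68 is also above its level in WT 2 and Foxm1 HET 3. Cd68 also reaches 48.5 TPM in Foxm1 HET 2, where Ccr2 is highest, at 582 TPM.

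The IRAK and TRAF genes were led by Irak1, the kinase recruited by MyD88 (chromosome X, 74013914 to 74023921). It had 1804, 1961 and 1008 reads in WT against 5265, 94 and 11206 in Foxm1 HET. The WT libraries lay close together and the Foxm1 HET libraries lay on both sides of them. Of its exon bases, 2.0% also belong to microRNA genes. The log2 CPM was 6.26 ± 0.24 (SD, n = 3) in WT against 6.35 ± 2.20 (SD, n = 3) in Foxm1 HET, with a log2 fold change of 0.86 (SE 1.90, adjusted p = 0.998 by edgeR).

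Irak4, the kinase upstream of Irak1, had 26, 208 and 487 reads in WT against 3, 0 and 240 in Foxm1 HET. Irak3, an inactive kinase that restrains the pathway, had 76, 1825 and 187 reads in WT against 340, 1 and 1526 in Foxm1 HET, and Irak2 had 297, 1 and 0 in WT against 72, 1 and 525 in Foxm1 HET. All 3 kinases were at 1 read or fewer in Foxm1 HET replicate 2 and overlapped between the genotypes.

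Traf6, the ubiquitin ligase that links IRAK proteins to TAK1, had 34, 11731 and 14 reads in WT against 2984, 7 and 7928 in Foxm1 HET, from the most abundant of the adaptor genes in WT replicate 2 to a few reads in both other WT libraries. Traf3, which serves the interferon arm, had 2768, 50 and 3 in WT against 477, 4 and 3576 in Foxm1 HET. Traf1, itself induced by NF-kB, reached 31 reads in Foxm1 HET replicate 3 and at most 2 elsewhere. Of the 8 adaptor, IRAK and TRAF genes tested, 3 had a higher and 5 a lower fitted level in Foxm1 HET, with a median log2 fold change of -0.66.

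The kinase layer was the most evenly detected, with 3 of its 7 genes at 10 or more reads in every library. Tab2, which tethers TAK1 to ubiquitin chains (chromosome 10, 7905648 to 7956123), had 5011, 108 and 870 reads in WT against 7296, 5762 and 6109 in Foxm1 HET. The Foxm1 HET libraries held more reads than each WT library, but on log2 CPM WT replicate 1, at 7.82, fell inside their range of 7.19 to 9.80. By TPM the genotypes did not overlap, with 127, 2.55 and 19.0 in WT against 140, 203 and 132 in Foxm1 HET. The share of all genes that part by TPM was not computed. On the normalized table the genotypes overlapped, with 7.05 in WT replicate 1 and 6.88 in Foxm1 HET replicate 3. On log2 CPM the level was 5.29 ± 2.80 (SD, n = 3) in WT against 8.19 ± 1.41 (SD, n = 3) in Foxm1 HET, and the log2 fold change was 2.10 (SE 1.68, adjusted p = 0.982 by edgeR).

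Ikbkb, the IKK subunit that phosphorylates IkB in the canonical pathway (chromosome 8, 22659205 to 22706583), had 946, 8695 and 2553 reads in WT against 2556, 3282 and 1139 in Foxm1 HET. The values of the genotypes interleaved. The mean log2 CPM came to 7.11 ± 1.59 (SD, n = 3) in WT against 6.61 ± 2.16 (SD, n = 3) in Foxm1 HET, with a log2 fold change of 0.03 (SE 1.68, adjusted p = 0.998 by edgeR).

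The other IKK subunits were lower and less regular. Chuk, which encodes IKK-alpha, had 321, 59 and 1 reads in WT against 213, 0 and 2 in Foxm1 HET, and Ikbkg, which encodes the scaffold NEMO, had 220, 1238 and 1 in WT against 797, 0 and 1123 in Foxm1 HET. WT replicate 3 and Foxm1 HET replicate 2 therefore had 2553 and 3282 reads of Ikbkb with at most 1 read of Chuk and of Ikbkg each. Map3k7, which encodes TAK1, had 93, 710 and 1259 in WT against 1314, 306 and 224 in Foxm1 HET. Map3k8, the kinase TPL2, had 517, 0 and 1 in WT against 509, 2 and 604 in Foxm1 HET, and Tab1 had 44 reads in Foxm1 HET replicate 3 and 0 elsewhere.

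Among the NF-kB subunits, Rel had the highest mean level, at 160 TPM. Rel, the c-Rel subunit (chromosome 11, 23741729 to 23770970), had 5662, 532 and 11130 reads in WT against 893, 21 and 7521 in Foxm1 HET, which equals 238, 20.8 and 402 TPM in WT against 28.4, 1.23 and 269 TPM in Foxm1 HET. The lowest value was in Foxm1 HET replicate 2 and the highest in WT replicate 3, with overlap between. In log2 CPM it stood at 7.34 ± 2.51 (SD, n = 3) in WT against 4.59 ± 2.88 (SD, n = 3) in Foxm1 HET, with a log2 fold change of -2.24 (SE 1.76, adjusted p = 0.982 by edgeR).

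Nfkb1, which encodes p105 and its product p50 (chromosome 3, 135584655 to 135691547), had 4020, 6 and 6818 reads in WT against 2466, 1412 and 5155 in Foxm1 HET. WT replicate 2 lay apart with 6 reads, and the 5 other libraries ranged from 1412 to 6818. The log2 CPM was 4.91 ± 5.60 (SD, n = 3) in WT against 6.91 ± 0.88 (SD, n = 3) in Foxm1 HET. The fitted log2 fold change had the opposite sign, at -0.58 (SE 1.73, adjusted p = 0.998 by edgeR). Such a change of sign between the fit and the mean log2 CPM occurred for 7 of the 33 genes. It also occurred for 18.06% of all genes tested.

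Rela, which encodes p65, had 633, 2283 and 1 reads in WT against 4404, 36 and 5072 in Foxm1 HET. Per length, Rel exceeded Rela in WT replicates 1 and 3 and in Foxm1 HET replicate 3, and Rela exceeded Rel in the other 3 libraries. In WT replicate 3 the contrast was extreme, with 402 TPM of Rel, 154 TPM of Nfkb1 and 1 read of Rela. The subunits of the alternative pathway were scarcer. Nfkb2 had 370, 43 and 2 reads in WT against 590, 1 and 91 in Foxm1 HET, and Relb had 0, 0 and 118 in WT against 7, 287 and 82 in Foxm1 HET.

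The inhibitors were led by Nfkbiz and Tnfaip3 and not by Nfkbia, which encodes IkB-alpha, the classical feedback inhibitor. Nfkbia (chromosome 12, 55489409 to 55492647) had 75, 78 and 130 reads in WT against 74, 2 and 19 in Foxm1 HET, or 5.15, 4.99 and 7.67 TPM in WT against 3.86, 0.191 and 1.11 TPM in Foxm1 HET. The 3 WT values lay close together, and the highest Foxm1 HET value was just under them. On log2 CPM the level was 2.22 ± 0.71 (SD, n = 3) in WT against -0.41 ± 1.26 (SD, n = 3) in Foxm1 HET, and the log2 fold change was -2.45 (SE 3.07, adjusted p = 0.998 by edgeR). On the normalized table the genotypes overlapped, at 2.23, 2.56 and 3.70 in WT against 0.98, 2.49 and 0.54 in Foxm1 HET. There, Foxm1 HET replicate 2, with 2 reads, stood above Foxm1 HET replicate 1, with 74.

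Nfkbiz, an atypical nuclear IkB protein that co-activates some NF-kB targets (chromosome 16, 55811377 to 55838641), had 8548, 7645 and 1664 reads in WT against 11384, 2066 and 13127 in Foxm1 HET. On log2 CPM it was the steadiest of these genes in Foxm1 HET, at 8.28 ± 0.05 (SD, n = 3) against 7.90 ± 1.04 (SD, n = 3) in WT. That steadiness depended on the scaling, as its TPM in Foxm1 HET was 242, 80.3 and 313. On the normalized table its Foxm1 HET values were 8.33, 6.73 and 8.49 (SD 0.98), while the SD of Tab2 was 0.38. The fitted log2 fold change of Nfkbiz was 0.17 (SE 1.58, adjusted p = 0.998 by edgeR). Its level per length was 40.0 to 313 TPM, above that of Nfkbia in each of the 6 libraries.

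Tnfaip3 encodes A20, a ubiquitin-editing enzyme that ends the signal (chromosome 10, 19000910 to 19015410), and had 3187, 20572 and 38 reads in WT against 2650, 5701 and 93 in Foxm1 HET. Each genotype had 1 library with under 100 reads and 2 others with 2650 or more. The mean log2 CPM came to 6.10 ± 4.37 (SD, n = 3) in WT against 5.70 ± 4.30 (SD, n = 3) in Foxm1 HET, with a log2 fold change of -0.15 (SE 1.55, adjusted p = 0.998 by edgeR) that turned to 2.09 without WT replicate 2. Bcl3, an atypical IkB protein, had 4260 reads in WT replicate 2, 74 in Foxm1 HET replicate 1 and at most 1 elsewhere.

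Tnip1, a partner of A20, had 129, 2 and 1 reads in WT against 929, 11 and 471 in Foxm1 HET. The genotypes overlapped on log2 CPM, but on the normalized table each Foxm1 HET value (3.83, 3.29 and 2.35) was above each WT value (2.14, 0.80 and 0.86), the 1 member for which this was so. There, Foxm1 HET replicate 2, with 11 reads of Tnip1, stood above WT replicate 1, with 129. By TPM that order was reversed, at 0.564 against 4.76. Nfkbie, which encodes IkB-epsilon, had 1098, 718 and 2 reads in WT against 437, 83 and 31 in Foxm1 HET. Nfkbib had at most 46 reads, and 16.0% of its exon bases lie opposite an overlapping gene, whose reads cannot be told apart where strand was not used in counting.

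Of the induced genes, Ccl3, which encodes the chemokine MIP-1 alpha (chromosome 11, 83647843 to 83649378), was the most abundant gene of the whole list, with a mean of 612 TPM, above 99.4% of the genes of the table. It had 11792, 6187 and 711 reads in WT against 4164, 2446 and 2364 in Foxm1 HET. All 3 Foxm1 HET libraries fell inside the range of WT. In log2 CPM it stood at 7.54 ± 1.85 (SD, n = 3) in WT against 7.05 ± 1.39 (SD, n = 3) in Foxm1 HET, with a log2 fold change of -0.65 (SE 1.64, adjusted p = 0.998 by edgeR) that was 0.14 with the other scaling method (relative log expression).

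Cxcl2, a chemokine that attracts neutrophils (chromosome 5, 90903899 to 90905938), had 44, 2 and 503 reads in WT against 790, 1140 and 1 in Foxm1 HET. Each genotype held a library with 1 or 2 reads. The log2 CPM was 1.16 ± 3.77 (SD, n = 3) in WT against 2.87 ± 5.51 (SD, n = 3) in Foxm1 HET, the fitted log2 fold change was 2.55 (SE 2.55, adjusted p = 0.998 by edgeR), and without Foxm1 HET replicate 2 it was -0.020. Of its 50-base stretches, 5.84% also occur in transcripts of other genes.

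The classical inflammatory cytokines were barely detected. Il6 had 0 reads in all 6 libraries, Il1b had 119 reads in Foxm1 HET replicate 1 and 0 elsewhere, and Tnf had 84 reads in that library and at most 5 elsewhere. The single library with Il1b and with more than 5 reads of Tnf also had the most Ccl4 and Ly96 reads. Its neutrophil markers summed to 16854 TPM, inside the range of WT. Its monocyte and macrophage markers summed to 8745 TPM, the highest of the 6 libraries and next to 8624 TPM in WT replicate 1. The part of such cells was not tested.

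Other induced genes stood out in 1 library each. Cxcl10, a chemokine of the interferon response, had 4262 reads in Foxm1 HET replicate 3 and at most 6 elsewhere. Cd83, a surface protein of activated antigen-presenting cells, had 1136 reads in WT replicate 2 and at most 1 elsewhere, in the library that also held nearly all Bcl3 reads. Icam1, an adhesion molecule, had 253, 2 and 129 in WT against 132, 1789 and 77 in Foxm1 HET, with 13.1% of its 50-base stretches shared with other genes. Ptgs2, which encodes COX-2, had 25, 7 and 1918 in WT against 360, 1 and 146 in Foxm1 HET, and Socs3, a brake on cytokine receptors, had at most 256 reads, in Foxm1 HET replicate 3, with 27.1% of its exon bases opposite an overlapping gene.

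**Figure D5:**
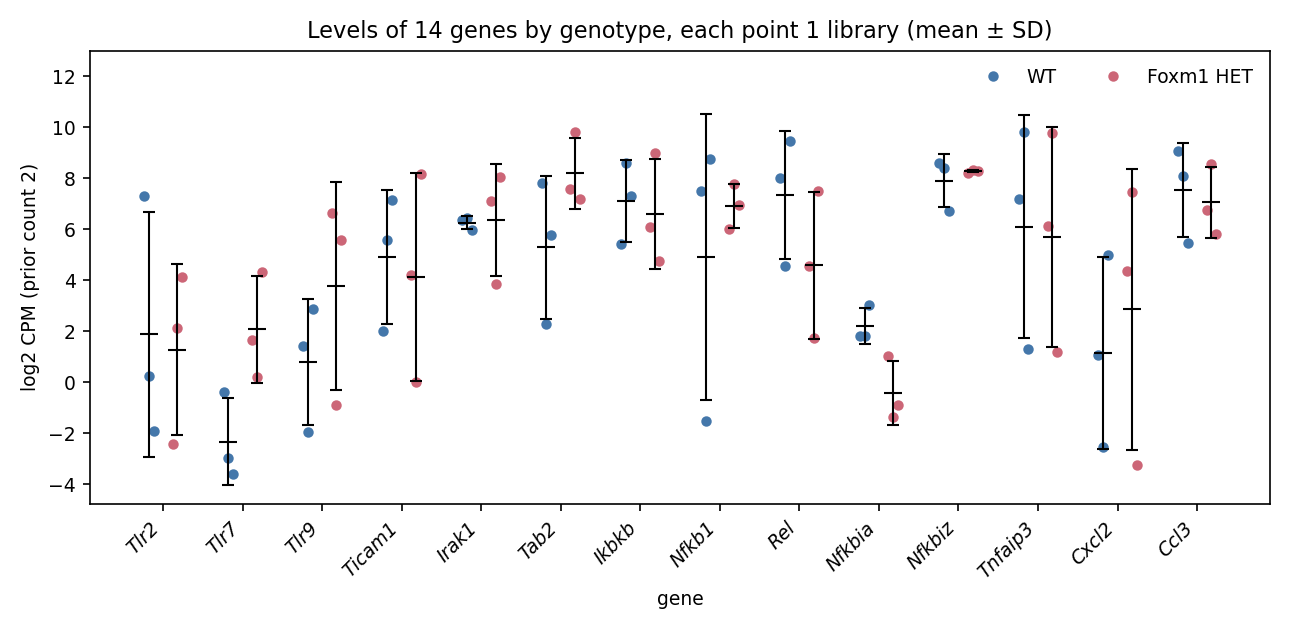
Log2 CPM (y axis) of 14 genes in the 3 WT (blue) and 3 Foxm1 HET (red) libraries, each point 1 library, with the mean and SD as black bars. The points of the genotypes part for Tlr7 and Nfkbia, and overlap for the other 12 genes.

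The 11 genes with a kappaB match that had any reads were not highest in the same library. By TPM, Map3k7, Rel and Nfkbia were highest in WT replicate 3, Bcl3 and Tnfaip3 in WT replicate 2, Tlr2 in WT replicate 1, Nfkb2 and Tnip1 in Foxm1 HET replicate 1, Cxcl2 in Foxm1 HET replicate 2, and Traf3 and Cxcl10 in Foxm1 HET replicate 3. Each of the 6 libraries was thus the highest for at least 1 of them. Genes in general were spread over the libraries as well. On log2 CPM, the share of all genes tested that were highest in a given library ran from 11.9% (Foxm1 HET replicate 1) to 20.8% (WT replicate 3). The spread of the 11 genes is therefore not particular to genes with the motif.

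Summed over the 48 genes, the level was 2904, 2476 and 1062 TPM in WT against 1788, 1406 and 2751 TPM in Foxm1 HET, a mean of 2147 ± 964 (SD, n = 3) against 1981 ± 693 (SD, n = 3). The ranges overlapped. By role, the inhibitors summed to 374, 920 and 48.6 TPM in WT against 339, 273 and 332 TPM in Foxm1 HET. The induced genes summed to 1673, 845 and 206 TPM in WT against 669, 732 and 653 TPM in Foxm1 HET. For both of these groups the Foxm1 HET sums lay close together inside the range of WT, but different genes made them up. Of the induced sum, Ccl3 held 64.9% and 63.8% in Foxm1 HET replicates 1 and 2, and Cxcl10 held 54.9% in replicate 3. Of the inhibitor sum, Nfkbiz held 71.3% and 94.2% in Foxm1 HET replicates 1 and 3, and Tnfaip3 held 68.4% in replicate 2. In the other roles the Foxm1 HET sums did not lie close together inside the range of WT. The receptors summed to 146, 1.03 and 12.2 TPM in WT against 115, 1.89 and 97.1 TPM in Foxm1 HET. The adaptors, IRAK and TRAF genes summed to 142, 375 and 143 TPM in WT against 202, 4.28 and 907 TPM in Foxm1 HET. The kinases summed to 187, 228 and 91.9 TPM in WT against 236, 320 and 197 TPM in Foxm1 HET, and the subunits to 381, 107 and 561 TPM in WT against 226, 74.6 and 564 TPM in Foxm1 HET. The genotypes overlapped in every role.

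Other genes of the pathway, which are not in the list, were taken from 58 symbols written from general knowledge. Of these, 44 were tested, 20 higher and 24 lower in Foxm1 HET, with a median log2 fold change of -0.18, and 2 had an unadjusted p under 0.05, both higher, where 6.03% of all genes tested had one in either direction. Tollip, an inhibitor of IRAK1 (chromosome 7, 141881585 to 141902406), had 235, 99 and 5 reads in WT against 1187, 2255 and 4018 in Foxm1 HET. Each Foxm1 HET library was above each WT library. The log2 fold change was 4.95 (SE 2.38, adjusted p = 0.773 by edgeR), and DESeq2, which called 194 genes where edgeR called 27, gave an adjusted p of 0.0278. Peli1, a ubiquitin ligase of the IRAK complex (chromosome 11, 21091324 to 21150327), had 67, 1793 and 18 reads in WT against 890, 14056 and 5412 in Foxm1 HET, which overlapped, with a log2 fold change of 4.80 (SE 1.77, adjusted p = 0.390 by edgeR).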

How the data were processed

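The authors deposited raw counts of reads per gene, without normalization, for 27179 genes, and normalized log2 values for the genes with enough signal. Reads were aligned to GRCm38 with STAR 2.7.2b per the labels; the counting program, use of strand and treatment of duplicates are not given in the sources used here. The labels' extraction and library kits differ from those in the study's methods. The normalized table ranks genes by counts per length with 1 distribution in all libraries. Columns were matched to samples by name.

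For the genotype comparison, edgeR 4.0.16 was run in R 4.3.3 (default filter, TMM, quasi-likelihood test, Benjamini-Hochberg adjustment over 8195 genes). Each SE was taken as the fitted change over the root of its F statistic. TPM was computed from counts and deposited gene lengths. Intervals at 0 reads cover counting error only. The fit was tested on simulated data, with success required only at a spread far smaller than in these data. Alternatives used DESeq2 1.42.0 and limma 3.58.1. Full statistics are given for Foxm1, members with an unadjusted p under 0.05 or with genotypes that do not overlap, the 2 tested members of each role with the highest mean TPM, and up to 4 other pathway genes per direction with the smallest unadjusted p under 0.05. The members and lists were chosen with earlier results of these data known. Stretches of 50 bases were compared with GENCODE transcripts. Results for 2 marker genes are not reported here, although the summed marker levels include them.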

Additional observations from a re-analysis of the deposited data

How the results depend on the processing

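Genes with an adjusted p under 0.05 numbered 27 of 8195, 10 with relative log expression scaling, 36 without the filter, 0 with at least 10 counts in every library, 194 with DESeq2 (2000 adjusted p were not given), 1 with limma on the normalized table, and 0 to 29 with each library left out, with 0 without WT replicate 1, without WT replicate 2 or without Foxm1 HET replicate 2 and 1 without WT replicate 3. No member had an adjusted p under 0.05 under any of these alternatives. Members with an unadjusted p under 0.05 numbered 0, 1 of 33 with relative log expression scaling (Icam1; 7.16% of all genes), 2 of 44 without the filter (Cxcl10 and Bcl3; 7.06%), 2 of 33 with DESeq2 (Tlr7 and Tlr9; 10.1%) and 0 to 2 of 33 to 38 with each library left out (4.81% to 6.52%). Members whose genotypes did not overlap numbered 2 of 33 (8.68% of all genes), 0 of 8 with at least 10 counts in every library (10.1%), 1 of 44 on the normalized table (Tnip1, 9.64%) and 3 to 7 of 33 to 38 with each library left out (15.0% to 21.6%). The median log2 fold change of the members ranged from -0.40 to 0.54, and that of all genes, -0.26, from -0.53 (without Foxm1 HET replicate 3) to 0.25 (without WT replicate 1), with -0.13 under relative log expression scaling and 0.24 without the filter.

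Same-numbered WT and Foxm1 HET libraries had deviations that correlated at 0.02, -0.03 and -0.07 across genes, so the numbers were not taken to pair the samples, although the methods speak of pairs of mice. With the replicate number as a block, 0 genes had an adjusted p under 0.05 and 0 members an unadjusted one, and the median of the members was 0.04.

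Of 195 refitted log2 fold changes of the 17 genes with full statistics, 21 turned in sign, and 9 genes, among them Foxm1, Tlr7, Nfkbia and Tollip, turned in none. With relative log expression scaling and with DESeq2, Ccl3 gave 0.14 and Tnfaip3 0.82. With at least 10 counts in every library Ikbkb gave -0.33. With the replicate block Ikbkb gave -0.42 and Tlr2 1.73. On the normalized table Nfkb1 gave 1.05 and Ikbkb -0.69. With each library left out, the range was -1.72 to 0.15 for Ccl3, -0.26 to 0.54 for Nfkbiz, -3.24 to 2.09 for Tnfaip3, -2.60 to 1.93 for Ticam1, -1.19 to 0.54 for Nfkb1, -2.00 to 0.97 for Ikbkb, -0.020 to 5.95 for Cxcl2 and -4.63 to 3.56 for Tlr2. The cause was not tested.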
